A study of Bos indicus x Bos taurus with 11 samples.

Results

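The bovine genes described here lie in the region of chromosome 21 that corresponds to the human Prader-Willi and Angelman region: SNRPN, SNURF, MAGEL2, MKRN3, UBE3A and the long noncoding RNA gene LOC100848941. They were taken by name, 6 of the 27572 genes and assembled loci that the deposited tables list. The total read table held 5 of them among 27398 rows, and the table of allelic reads, those placed on a maternal or paternal copy, held 4 among 9716 genes. SNRPN was in the allelic table alone, SNURF and MKRN3 were in the total table alone, and MAGEL2, UBE3A and LOC100848941 were in both. RNA was measured by total RNA sequencing after ribosomal RNA depletion in primary skin fibroblasts, cultured with fetal bovine serum, from fetuses at day 105 of gestation that were F1 hybrids between the Brahman breed (Bos taurus indicus) and the Angus breed (Bos taurus taurus). The LOS group (large offspring syndrome, a fetal overgrowth condition of ruminants) held 6 fetuses, 3 female and 3 male, that were conceived by assisted reproductive technologies and weighed more than the 97th centile of controls. The control group held 5 fetuses, 2 female and 3 male, that were conceived by artificial insemination. Each fetus gave 1 library. Large offspring syndrome and assisted conception cannot be told apart, since no fetus in these tables had the one without the other.

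In human and mouse, this region is imprinted, so that expression depends on the parent from which an allele came. SNRPN, SNURF, MAGEL2, MKRN3, the related gene NDN and the noncoding transcripts and small nucleolar RNAs (snoRNAs) downstream of SNRPN are expressed from the paternal allele, while the maternal copy of the imprinting centre at SNRPN is methylated. UBE3A is expressed from the maternal allele in neurons, where a long antisense transcript silences the paternal copy, and from both alleles in most other cells. Loss of the paternal products causes Prader-Willi syndrome, and loss of maternal UBE3A causes Angelman syndrome.

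The libraries held 12084822 to 19297167 expected counts in LOS and 14147031 to 19272354 in controls, and 2198572 to 3904531 reads assigned to an allele over all 11. XIST levels matched the labelled sex in 11 of 11 libraries. All 9 fibroblast markers were present, with a summed level of 51610 to 66319 CPM (counts-per-million, scaled to library size) in LOS and 54367 to 64176 CPM in controls. Of the 9 neuronal markers, 7 were in the table, with a summed level of 6.89 to 117 CPM in LOS and 12.6 to 33.9 CPM in controls. STMN2 made up most of the high sums, reaching 104 CPM, and TUBB3 was at 5.33 to 18.5 CPM. SNAP25, SYP and SYT1 reached at most 1.96, 0.793 and 0.272 CPM, and RBFOX3 and ELAVL3 at most 0.0988 and 0.0679 CPM. Summed markers of keratinocytes were at 0.0529 to 21.3 CPM in LOS and 1.78 to 9.10 CPM in controls, of endothelial cells at 2.72 to 5.02 CPM in LOS and 3.87 to 5.21 CPM in controls, and of leukocytes and skeletal muscle at no more than 1.55 CPM. Among the keratinocyte markers CDH1 reached 21.2 CPM, while KRT5, KRT14, KRT15 and TP63 did not exceed 1.96 CPM. The part of these cell types in the results was not tested. In bulk RNA, fewer cells of a type and less RNA per cell cannot be told apart.

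In the coordinates of the deposited tables (assembly ARS-UCD1.2), the 6 genes spanned 1240 kb of chromosome 21. MKRN3, which encodes a RING-finger ubiquitin ligase known in humans as an inhibitor of puberty onset, lay at 1159730 to 1169139 on the plus strand. MAGEL2, a MAGE family gene whose human protein promotes ubiquitination on endosomes with TRIM27, lay at 1204636 to 1209143 on the minus strand. SNRPN, which encodes the spliceosomal protein SmN, lay at 1937668 to 1961040 on the plus strand, 729 kb beyond MAGEL2. SNURF, the upstream reading frame of the same transcript unit, lay at 1937689 to 1954983, wholly within SNRPN on the same strand. Reads within SNURF therefore cannot be told from reads of SNRPN by position, and the level of SNURF is uncertain as a measure of that gene alone. LOC100848941, a long noncoding RNA gene by the annotation, lay at 2086104 to 2124955 on the plus strand, 125 kb downstream of SNRPN. UBE3A, which encodes an E3 ubiquitin ligase, lay at 2302849 to 2399793 on the minus strand. The noncoding gene LOC101907203 overlapped UBE3A over 25.3 kb on the opposite strand, and no source used here states whether the counting used strand, so reads of those genes may be mixed.

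**Figure D1:**
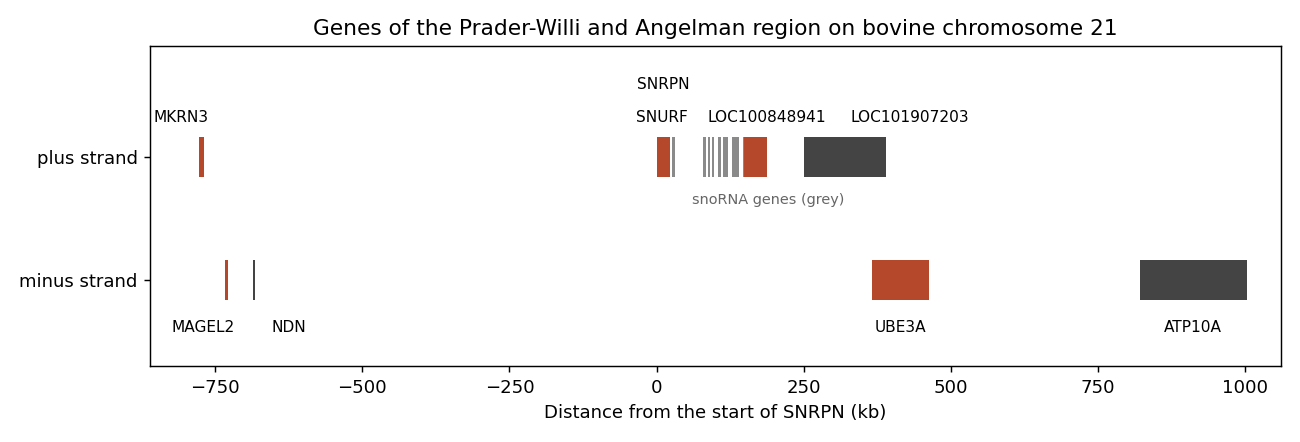
Position of the genes by strand, as distance in kb from the start of SNRPN. Red boxes are the 6 genes described here, dark boxes are neighbouring genes and grey boxes are snoRNA genes. The snoRNA genes lie between SNRPN and UBE3A, some of them within LOC100848941 or beyond it.

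Reads of both parental alleles at SNRPN, MAGEL2 and LOC100848941 were found in the same 3 LOS libraries, LOS 2, LOS 3 and LOS 5. These were 3 of the 4 genes in the allelic table, and in each of these libraries the paternal allele gave more reads than the maternal allele at all 3 genes. In the other 3 LOS libraries no read was assigned to either allele at any of them. In controls there was none at MAGEL2 and at most 7 at the other genes. The labels do not state which breed was the mother, so in these hybrids a difference between the maternal and paternal allele, here and at every gene below, cannot be told apart from a difference between the breeds' alleles or in how their reads map.

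SNRPN had 32 maternal and 145 paternal reads in LOS 2. It had 67 maternal and 193 paternal reads in LOS 3, and 83 maternal and 168 paternal reads in LOS 5. The only control library with reads at SNRPN was control 4, with 6 maternal reads and 1 paternal read. The maternal allele therefore made up 18.1% of the allelic reads in LOS 2 (exact Clopper-Pearson 95% interval 12.7 to 24.6%), 25.8% in LOS 3 (20.6 to 31.5%) and 33.1% in LOS 5 (27.3 to 39.3%). In control 4 it made up 85.7%, with an interval of 42.1 to 99.6% from so few reads. Such intervals cover counting error only, since sequencing reads are not independent molecules. All 3 LOS intervals lay below an equal share of both alleles, and those of LOS 2 and LOS 5 did not overlap.

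MAGEL2 had fewer reads, with 7 maternal and 17 paternal in LOS 2, 11 maternal and 15 paternal in LOS 3, and 15 maternal and 57 paternal in LOS 5. Its maternal share was 29.2% in LOS 2 (12.6 to 51.1%), 42.3% in LOS 3 (23.4 to 63.1%) and 20.8% in LOS 5 (12.2 to 32.02%). Only the interval of LOS 5 excluded an equal share at this depth. The total table gave MAGEL2 114 to 204 expected counts in LOS and 122 to 212 in controls, so the libraries without allelic reads did hold its RNA.

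LOC100848941 had 18 maternal and 62 paternal reads in LOS 2, 53 maternal and 104 paternal in LOS 3, and 48 maternal and 106 paternal in LOS 5. Controls 2 and 4 had 1 maternal and 4 paternal reads each, beside 1996 and 1976 expected counts. The maternal share was 22.5% in LOS 2 (13.9 to 33.2%), 33.8% in LOS 3 (26.4 to 41.7%) and 31.2% in LOS 5 (24.0 to 39.1%), against 20% in each of those controls (0.505 to 71.6%). The mean difference between the 3 LOS and the 2 control libraries with reads was 9.14 percentage points. A two-sided exact permutation test gave p = 0.2 (adjusted p = 0.992). Its smallest possible p over 10 splits was 0.1, so it could not pass a threshold of 0.05 and decides nothing here. The control shares rest on 5 allelic reads each. LOC100848941 met the minimum for this test, a mean of 20 allelic reads per library, through its LOS reads (391, against 10 in controls).

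**Figure D2:**
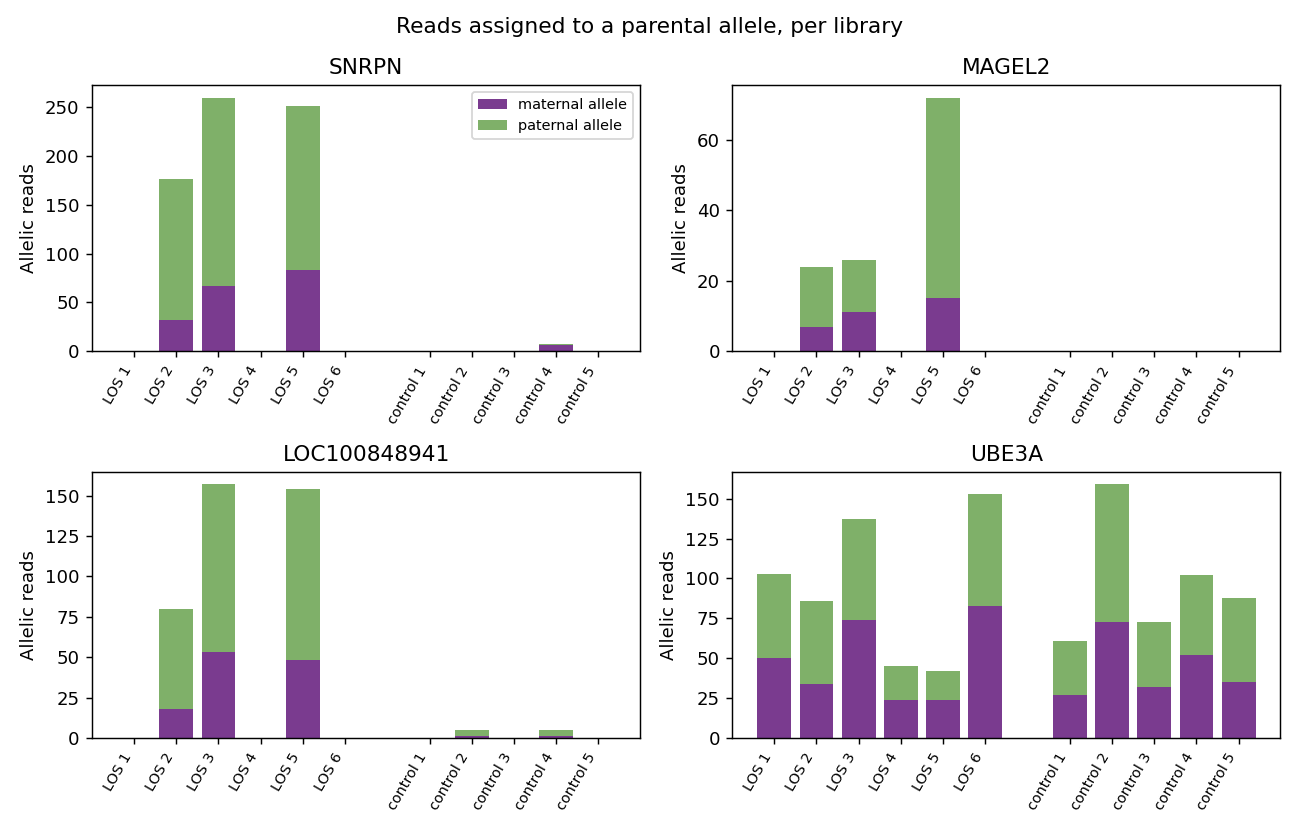
Reads assigned to the maternal (purple) and the paternal (green) allele in each library, for the 4 genes in the allelic table. SNRPN, MAGEL2 and LOC100848941 have bars in LOS 2, LOS 3 and LOS 5 and at most 7 reads in any control library, while UBE3A has 42 to 159 reads in every library.

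Counting libraries with at least 10 allelic reads at all 3 genes gave 3 of 6 LOS and 0 of 5 controls. That difference did not pass a two-sided Fisher's exact test (p = 0.182), and the count was chosen after the values were seen. Without LOS 2, LOS 3 or LOS 5 the count was 2 of 5. With a minimum of 1 allelic read, the count over all 3 genes stayed at 3 of 6 LOS and 0 of 5 controls, as did that of MAGEL2. Taken alone, SNRPN then had 3 of 6 LOS and 1 of 5 controls, and LOC100848941 had 3 of 6 LOS and 2 of 5 controls. Among all 9716 genes of the allelic table, 3 had 20 or more reads in each of these LOS libraries and fewer than 10 in each of the other 8 libraries, and they were SNRPN, MAGEL2 and LOC100848941 themselves. With any allelic read in each of these libraries and none in the others, the genes were MAGEL2, EMID1 and TFR2, of which the last ones lie outside the genes described here. Both criteria were set after the values were seen. The libraries themselves were picked by their reads at SNRPN, MAGEL2 and LOC100848941, so it is no support for the pattern that these genes met such criteria. Neither SNRPN nor MAGEL2 could enter a test of the maternal share between groups, since 1 and 0 control libraries had reads.

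A gene without allelic reads in a library may lack a heterozygous site there or may be read from a single allele, and the allelic table does not tell these apart. Of its 79210 combinations of a gene and a library with reads, 6 had one allele at 0, so a gene with reads in it nearly always had both alleles. LOS 2, LOS 3 and LOS 5 held 3034691, 2439334 and 2342001 allelic reads, against 2198572 to 3904531 in the other 8 libraries. Reads fell on 7046, 6886 and 7076 genes in them, against 7009 to 7765 genes in the others, so LOS 3 had the fewest of all 11 libraries. The part of such differences in the result was not tested. Other genes known to be paternally expressed in mammals, a list drawn up after these values were seen, had 5 members in the allelic table. At least 10 reads were found at PEG10 and SGCE in LOS 2 and at PEG3 in LOS 5, and at none of the 5 in LOS 3 or in the other 8 libraries.

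At MAGEL2 and LOC100848941, the allelic shares can be set beside the total level, on the assumption that the share holds over the whole gene. The maternal part of the MAGEL2 level came to 3.51 CPM in LOS 2, 4.02 CPM in LOS 3 and 3.21 CPM in LOS 5. The paternal part came to 8.53, 5.48 and 12.2 CPM in the same libraries. Total MAGEL2 levels were 6.02 to 12.1 CPM in the controls, and 12.7, 8.37 and 8.67 CPM in LOS 1, LOS 4 and LOS 6. For LOC100848941 the maternal part was 23.2, 33.3 and 42.04 CPM and the paternal part 79.9, 65.3 and 92.8 CPM in LOS 2, LOS 3 and LOS 5. Its total levels were 80.4 to 98.6 CPM in the controls, and 73.3, 83.1 and 86.0 CPM in LOS 1, LOS 4 and LOS 6. Allelic reads were absent or too few to split those totals by allele. The maternal and paternal parts carry the counting error of the shares given above and were not tested against those totals. Allelic reads amounted to 14.5 to 35.3% of the expected counts at MAGEL2 and to 5.63 to 12.01% at LOC100848941 in LOS 2, LOS 3 and LOS 5. These percentages are not a part of a whole, since allelic reads can exceed expected counts, as at ATP10A in LOS 2 (2740 against 1827).

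UBE3A was read from both alleles in all 11 libraries, at near equal levels. Its maternal share in LOS was 48.5, 39.5, 54.0, 53.3, 57.1 and 54.2% in LOS 1 to LOS 6, against 44.3, 45.9, 43.8, 51.0 and 39.8% in controls 1 to 5. The interval of each library included an equal share, at a depth of 42 to 159 allelic reads. The paternal allele had more reads in 2 of 6 LOS libraries and in 4 of 5 controls, and the ranges of the groups overlapped.

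The UBE3A maternal share averaged 51.1 ± 6.33% in LOS and 45.0 ± 4.06% in controls (SD, n = 6 and 5). The difference of 6.18 percentage points had p = 0.0996 and an adjusted p of 0.992 in a two-sided exact permutation test over 462 splits, whose smallest possible p was 0.00216. Of the 6033 genes tested in this way, 0% passed the adjusted threshold of 0.05, and 248 (4.11%) had an unadjusted p below it. By the quasi-likelihood test of edgeR, adjusted by the Benjamini-Hochberg method, maternal and paternal reads of UBE3A differed by a log2 ratio of 0.05 ± 0.15 (SE, adjusted p = 0.891) in LOS and of -0.28 ± 0.17 (adjusted p = 0.343) in controls. The ratio in LOS was -0.00 without LOS 6. This model called 10.4% of 5700 genes in LOS and 9.09% in controls, in either direction. The difference between the groups in that ratio, 0.33 ± 0.23, did not pass either (adjusted p = 0.999), and the model called 0% of the genes for such a difference (246 had an unadjusted p below 0.05).

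**Figure D3:**
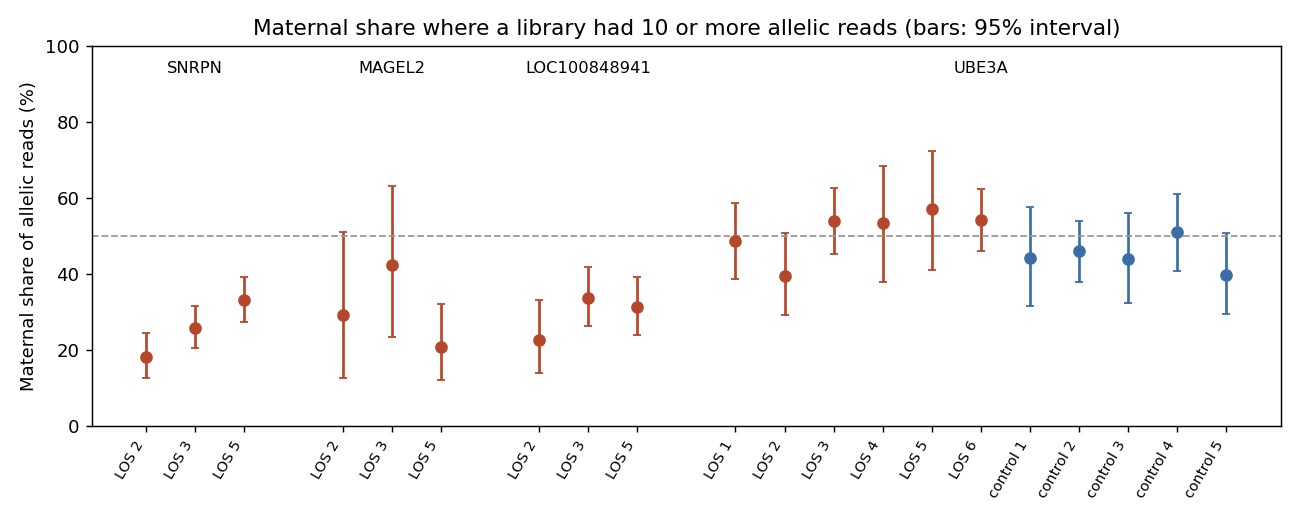
Maternal share of allelic reads in percent, for each library with at least 10 allelic reads at the gene. Points are libraries (red LOS, blue control), bars are exact 95% intervals and the dashed line marks an equal share, which lies inside the interval of every UBE3A library and above that of every SNRPN and LOC100848941 library.

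In total RNA, the 4 genes with enough reads to test did not differ between LOS and control fetuses beyond the spread between fetuses. MAGEL2, SNURF and LOC100848941 were slightly higher in LOS on average, and UBE3A was nearly the same. With sex as a term, the quasi-likelihood test of edgeR, adjusted over 16946 genes by the Benjamini-Hochberg method, called 0 of the 4 at an adjusted p below 0.05. It called 0% of all genes, while 752 genes had an unadjusted p below 0.05, none of them among these 4. The limma test called 0 genes and DESeq2 called 5, none of them among the 4.

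MAGEL2 had 8.37 CPM in the lowest LOS library (LOS 4), a median of 10.8 CPM in LOS and 15.4 CPM in the highest (LOS 5). The controls had 12.02, 6.02, 12.1, 10.4 and 9.32 CPM. LOS 5 and LOS 1 were above every control, no LOS library was below the lowest control, and the groups overlapped. The mean of MAGEL2 was 11.1 ± 2.76 CPM in LOS fetuses, against 9.98 ± 2.50 CPM in control fetuses (SD, n = 6 and 5), a log2 fold change of 0.17 ± 0.22 (SE, adjusted p = 0.942 by edgeR). The 95% interval of the fold ran from 0.801 to 1.57. The sign rested on control 2, without which the log2 fold change was -0.01.

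SNURF had 8.25 CPM in the lowest LOS library (LOS 6), a median of 10.8 CPM and 12.96 CPM in the highest (LOS 3). The controls had 11.1, 9.78, 12.02, 7.57 and 9.67 CPM. LOS 3 and LOS 5 were above every control and the groups overlapped. SNURF averaged 10.8 ± 1.85 CPM in LOS, against 10.0 ± 1.69 CPM in controls, a log2 fold change of 0.09 ± 0.15 (adjusted p = 0.962 by edgeR) with an interval of the fold of 0.841 to 1.35. The log2 fold change was 0.00 without LOS 5 and 0.18 without control 3.

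LOC100848941 spread more widely among LOS libraries than among controls. It had 73.3 CPM in the lowest LOS library (LOS 1), a median of 92.3 CPM and 135 CPM in the highest (LOS 5), against 98.0, 98.6, 80.4, 97.2 and 93.5 CPM in the controls. LOS 5 and LOS 2 were above every control and LOS 1 was below every one. The mean was 96.5 ± 21.7 CPM in LOS, against 93.5 ± 7.59 CPM in controls, a log2 fold change of 0.05 ± 0.15 (adjusted p = 0.978 by edgeR), with an interval of the fold of 0.827 to 1.29. Without LOS 5 the log2 fold change was -0.10, and without control 3 it was -0.01. The snoRNA genes LOC112443274, LOC112443275, LOC112443281 and LOC112443283 and the pseudogene LOC112443282 lie within LOC100848941, so part of these reads may belong to them. The highest of them, LOC112443281, was at 27.6 to 39.1 CPM.

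UBE3A had the narrowest range. It had 63.1 CPM in the lowest LOS library (LOS 2), a median of 68.0 CPM and 73.2 CPM in the highest (LOS 1), against 66.4, 68.4, 73.0, 67.0 and 69.9 CPM in the controls. The LOS mean was 68.2 ± 3.61 CPM, against 68.9 ± 2.65 CPM in controls, a log2 fold change of -0.01 ± 0.07 (adjusted p = 0.987 by edgeR). The interval of the fold, 0.896 to 1.10, was the tightest of the 4. The sign turned to 0.01 without control 3 and without LOS 2, and the value was 0.00 without LOS 4. Split by allele in the deposited allele-adjusted counts, maternal UBE3A had a mean of 35.0 ± 5.16 CPM in LOS, against 31.0 ± 2.45 CPM in controls (log2 fold change 0.19 ± 0.12, adjusted p = 0.973), and paternal UBE3A had a mean of 33.3 ± 3.75 CPM in LOS, against 38.0 ± 3.69 CPM in controls (-0.20 ± 0.12, adjusted p = 0.935). That fit called 0% of 4247 genes for the maternal and 0% of 4250 genes for the paternal allele, with 196 and 188 genes at an unadjusted p below 0.05.

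**Figure D4:**
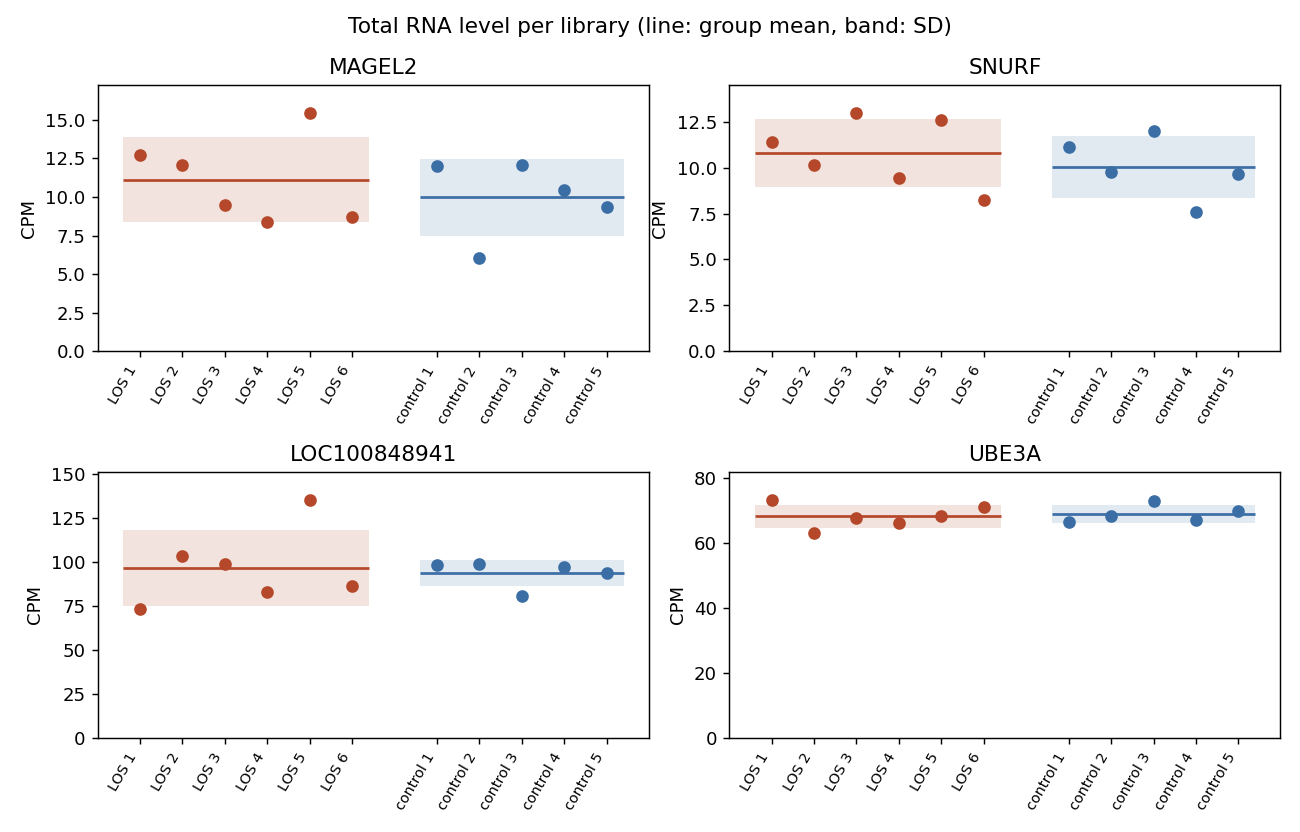
Total RNA level in CPM of the 4 tested genes, 1 point per library, with the group mean (line) and SD (band). LOS libraries are at the left in red and controls at the right in blue, and the groups overlap for every gene.

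None of the 4 genes had groups that did not overlap, a pattern that 39 of the 16946 genes (0.23%) showed. MKRN3 was at the edge of detection and was left out of the test by the filter on low counts. Its expected counts were 1, 4, 6, 4, 4 and 0 in LOS 1 to LOS 6, against 2, 14, 2, 2 and 4 in controls 1 to 5. The count of 0 in LOS 6 allows a level of up to 0.159 CPM, which is 3 counts in that library. A difference between the groups was not detectable at this depth: without the filter on low counts, the log2 fold change was -0.24 ± 0.72 (adjusted p = 0.975 by edgeR).

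Sex made no difference that passed the test at any of the 4 genes. The log2 difference, male minus female, was 0.06 ± 0.22 for MAGEL2, -0.15 ± 0.15 for SNURF, 0.03 ± 0.15 for LOC100848941 and 0.03 ± 0.07 for UBE3A (SE, adjusted p = 0.999 each by edgeR), in a fit that called 0.0472% of 16946 genes. The difference for MAGEL2 was -0.11 without control 2 and -0.09 without LOS 5, and that for LOC100848941 was -0.06 without LOS 1 and -0.12 without LOS 5. The LOS effect in females was 0.35 ± 0.34 for MAGEL2, 0.14 ± 0.24 for SNURF, -0.10 ± 0.22 for LOC100848941 and 0.01 ± 0.11 for UBE3A. In males it was 0.03 ± 0.30, 0.05 ± 0.22, 0.16 ± 0.20 and -0.03 ± 0.09 for the same genes. The interaction of group and sex had adjusted p of 0.933, 0.977, 0.928 and 0.975 for these genes by edgeR, in a fit that called 0% of 17583 genes (870 had an unadjusted p below 0.05).

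Between the starts of SNURF and UBE3A, the stretch that in human and mouse makes the long noncoding host transcript of the snoRNAs, the total table had 30 rows. SNURF and LOC100848941 were among them, beside 20 snoRNA genes and 5 assembled loci outside the annotation. Of the 11 rows tested, 8 were higher and 3 lower in LOS and 0 were called, with a median log2 fold change of 0.07. Over all 16946 genes, 8447 were higher and 8499 lower in LOS, with a median of -0.00. The summed level of the snoRNA genes was 41.0 to 55.2 CPM in LOS and 45.4 to 59.8 CPM in controls, and 3 of the 6 tested were higher and 3 lower. The assembled locus MSTRG.17314 had 5 of 6 LOS libraries above every control, with a mean of 4.44 ± 0.77 CPM in LOS, against 3.55 ± 0.21 CPM in controls (log2 fold change 0.33 ± 0.16, adjusted p = 0.932 by edgeR). The rows of this stretch were taken by position after the data were seen.

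NDN, the MAGE family gene next to MAGEL2 and paternally expressed in human and mouse, had 4.97 CPM in its lowest LOS library, a median of 7.25 CPM and 9.27 CPM in its highest, against 8.51, 5.38, 6.73, 7.03 and 6.78 CPM in controls. The groups overlapped, with a log2 fold change of 0.04 ± 0.17 (adjusted p = 0.984 by edgeR). Of 15 genes listed as neighbours of the region, 10 were in the total table and 8 were tested. Of these, 6 were higher and 2 lower in LOS, and 0 were called (median 0.03). In the bovine coordinates used here, OCA2, HERC2, NIPA1, NIPA2, CYFIP1 and TUBGCP5 lie on chromosome 2, not beside the region on chromosome 21. ATP10A, a phospholipid flippase gene, was at 122 ± 36.3 CPM in LOS, against 85.6 ± 43.3 CPM in controls, with 6 of 6 LOS libraries above the control median (0.54 ± 0.31, adjusted p = 0.932). OCA2, a melanosomal transporter gene, had 0.63 ± 0.60. Summed markers of Schwann cells and melanocytes were at 17.3 to 51.9 CPM in LOS and 8.40 to 175 CPM in controls. Among them the melanocyte marker PMEL was at 3.95 to 166 CPM over the libraries, with a mean of 27.3 CPM in LOS and 64.4 CPM in controls. The part of those cells in the OCA2 value was not tested. The log2 fold changes of the others were near 0, with 0.04 ± 0.09 for CYFIP1, 0.03 ± 0.11 for NIPA2, 0.01 ± 0.13 for NIPA1, -0.01 ± 0.07 for HERC2 and -0.04 ± 0.14 for TUBGCP5.

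**Figure D5:**
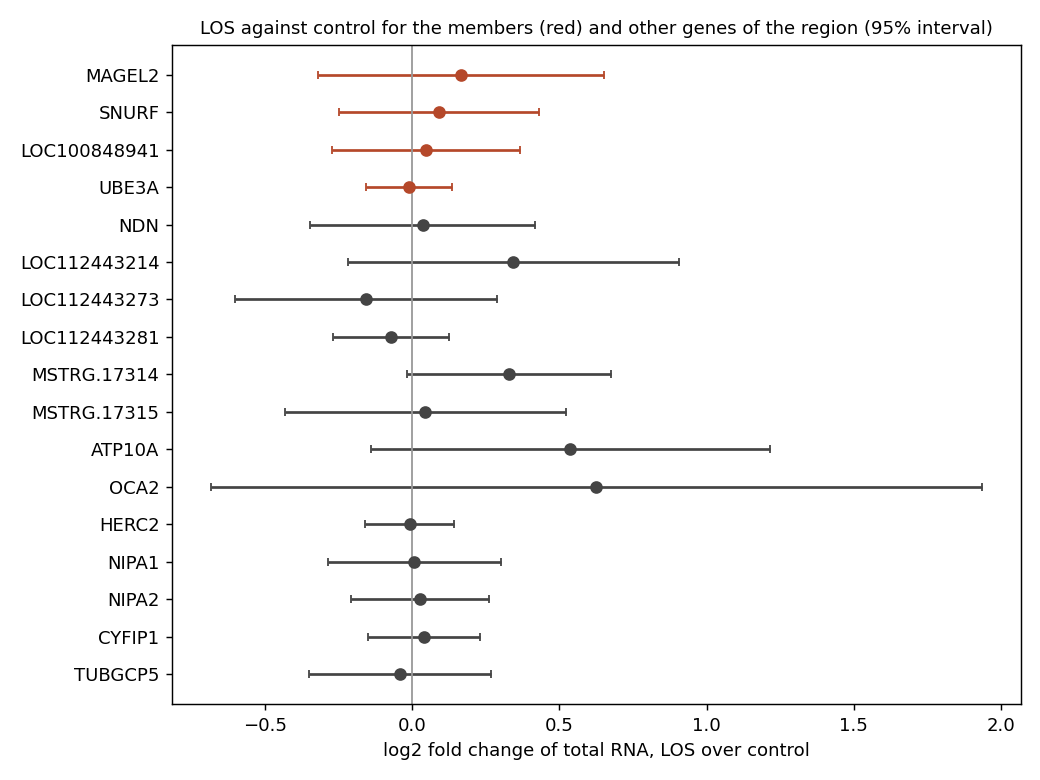
Log2 fold change of total RNA, LOS over control, with its 95% interval, for the 4 tested genes (red) and other tested genes (grey). The grey genes lie in the region or are listed as its neighbours, and OCA2, HERC2, NIPA1, NIPA2, CYFIP1 and TUBGCP5 lie on chromosome 2. The interval includes 0 for every gene shown, and that of UBE3A is the narrowest of the 4.

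Among genes whose proteins work with those of this region, 0 were called in the lists below, and every adjusted p was 0.932 or higher by edgeR. Of 18 genes for the core of spliceosomal ribonucleoproteins, to which SmN belongs, 9 were higher and 9 lower in LOS (median 0.00). Of 17 genes for the MAGEL2, TRIM27, retromer and WASH complex and related MAGE proteins, 9 were higher and 8 lower (median 0.01); MAGED2 had 0.18 ± 0.11 and the retromer subunit VPS29 -0.19 ± 0.10. Of 15 genes for partners and substrates of UBE3A, 9 were higher and 6 lower (median 0.02), and MAPK6, a kinase, had the smallest p of the list, with 0.24 ± 0.10. Of 6 tested makorins and makorin targets, 3 were higher and 3 lower (median 0.00), with the smallest p at the RNA-binding protein gene IGF2BP1, -0.71 ± 0.41. Of 18 genes that set or protect imprints, 7 were higher and 11 lower (median -0.05). Among them DNMT1, the maintenance DNA methyltransferase, had -0.33 ± 0.20, ZNF274, a zinc-finger repressor, -0.35 ± 0.17, and CTCF, the insulator protein, -0.18 ± 0.09.

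Across the 11 libraries, no correlation among the 6 pairs of the 4 tested genes passed the test. MAGEL2 and SNURF had Pearson's r of 0.473 (permutation p = 0.141, adjusted 0.424) and Spearman's rho of 0.60 (p = 0.057, adjusted 0.279), and r was 0.434 without control 2 and LOS 5. LOC100848941 and UBE3A had r of -0.514 (permutation p = 0.103, adjusted 0.424) and rho of -0.536 (p = 0.093, adjusted 0.279), and r was -0.655 without LOS 5 and LOS 1. The other 4 pairs had r between 0.053 and 0.252, and that of MAGEL2 and LOC100848941 turned to -0.0852 without control 2 and LOS 5.

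The genes with the pattern most like a member's over the 11 libraries, by Pearson's r of log2(CPM + 0.5), were on other chromosomes. For MAGEL2 they were the assembled locus MSTRG.2128 (r = 0.982, rho = 0.945), CLCN3 (r = 0.898) and MGAT2 (r = 0.889). For SNURF they were LOC100848995 (r = 0.898), LOC101907744 (r = 0.847) and OCLN (r = 0.844). For UBE3A they were LOC782101 (r = 0.928), ZNF106 (r = 0.914) and MSTRG.15709 (r = 0.908). For LOC100848941 they were MSTRG.3156 (r = 0.877), ZSCAN21 (r = 0.872) and YIPF3 (r = 0.864). These genes were picked as the highest in r of all tested genes, so no p is given.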

How the data were processed

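Per the file headers, the authors deposited expected counts per gene, with annotated genes and assembled loci, reads assigned to the maternal and paternal allele as whole counts, and expected counts adjusted by the allelic ratio. Per the submitters' processing notes, HISAT2 2.1.0, StringTie 2.1.4, Salmon 0.11.1, GATK, Picard 2.22.4, SAMtools 1.8 and edgeR 3.36.0 were used on assembly ARS-UCD1.2. No source used here states their roles and settings, whether strand was used, or how allelic sites were chosen. Of the expected counts, 71.2% were whole, and all were rounded. Total reads were tested with edgeR 4.0.16 (R 4.3.3; quasi-likelihood, TMM scaling, low counts removed by filterByExpr, sex as a term), which was also checked on simulated counts. CPM and the limits for counts of 0 used TMM-scaled library totals. Maternal and paternal reads were tested with a term for each library, and maternal shares by exact permutation of libraries. The calling threshold was an adjusted p of 0.05. Alternatives were DESeq2 1.42.0, limma 3.58.1, other scalings and filters, a replicate block and leaving out each library. Named genes were the 6 members, the region's neighbours, from every other list up to 4 genes by smallest p, and the 3 genes most like each tested member. The members and lists were chosen with earlier results of these data known. Sequences of these genes are not used here. Some neighbours of the region are not reported by name here.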

Additional observations from a re-analysis of the deposited data

Results flagged for a closer look

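Of 34 combinations of a gene and a group checked, 3 had a library far from the others of its group, where chance alone gives about 1 in 20. MKRN3 had 14 expected counts in control 2, and the next control had 4. LOC100848941 had 80.4 CPM in control 3, below the other controls, of which the lowest had 93.5 CPM. CYFIP1, a listed neighbour on chromosome 2 that encodes an actin regulator, had 159.7 CPM in LOS 2, and the next LOS library had 135 CPM.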

How the results depend on the processing

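No test result of the 4 genes crossed its threshold under any alternative run, and 339 of the values recomputed kept their direction and call, while 19 changed sign and 14 moved. The log2 fold change of LOC100848941 was -0.021 with library totals alone and -0.012 with the replicate block. Whether replicate numbers pair the samples was not tested. Correlations of same-numbered libraries ran from -0.202 to 0.291, and 2 of 5 LOS libraries correlated best with the control of their own number. With the block MAGEL2 had 0.37, SNURF 0.20 and UBE3A -0.01, with 0 genes called. The correlation of MAGEL2 and LOC100848941 was -0.0852 without 2 libraries. DESeq2 called 5 genes for LOS against control, 6 for the interaction and 22 for sex. Leaving out each library in turn gave -0.10 to 0.11 for LOC100848941, -0.0081 to 0.30 for MAGEL2, 0.00031 to 0.18 for SNURF and -0.037 to 0.0069 for UBE3A in LOS against control. For sex it gave -0.12 to 0.073 for LOC100848941, -0.11 to 0.20 for MAGEL2 and 3 to 7 called genes. For the interaction it gave -0.89 to 0.10 for MAGEL2, -0.28 to 0.091 for SNURF, 0.0055 to 0.39 for LOC100848941 and -0.093 to 0.014 for UBE3A. The UBE3A allelic ratio in LOS ran from -0.0022 to 0.18. At SNRPN, MAGEL2 and LOC100848941 alike, 2 to 3 LOS libraries had at least 10 allelic reads. The causes were not tested. The LOC100848941 maternal share could not be compared at a minimum of 10 or 20 allelic reads, since no control was left. Allelic reads per control numbered 61 to 159 at UBE3A and at most 7 at the other genes, which limits comparisons of shares.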

Other observations

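ATP10A, beyond UBE3A on the minus strand, had more paternal than maternal reads in 11 of 11 libraries. Its allelic reads came to 80.2% (LOS 5) to 150% (LOS 2) of its expected counts, so they are not a part of those counts. Its maternal share averaged 42.02 ± 1.81% in LOS and 42.01 ± 2.35% in controls (SD, n = 6 and 5). By the quasi-likelihood test of edgeR, adjusted by the Benjamini-Hochberg method, the log2 ratio of maternal to paternal reads was -0.47 ± 0.06 in LOS (SE, adjusted p = 1.5e-05) and -0.46 ± 0.07 in controls (adjusted p = 5.6e-05), and the ratio did not differ between the groups by that test (adjusted p = 0.999). A parental and a breed difference cannot be told apart in these hybrids. Lower maternal reads were called for 4.74% of 5700 genes in LOS and 3.72% in controls. LOC101907203, which overlaps UBE3A on the opposite strand, had 14 to 228 allelic reads per library but 4 to 17 expected counts in the total table, so most of these reads cannot be assigned to it with certainty. The maternal share of the reads listed under it ran from 42.7 to 64.3% in LOS and from 41.3 to 78.6% in controls.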
